A study of Homo sapiens with 9 samples.

Results

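Glutathione is the main low-molecular-weight thiol of the cell, and 10 genes that make, recycle, use or break it down were followed in HepG2 cells, an established human liver cancer line, under glutamine (Gln) deprivation. The genes are *GCLC*, *GCLM* and *GSS* (synthesis), *GSR* (reduction of the oxidised form), *CBS* and *CTH* (transsulfuration), *CHAC1* and *GGT1* (breakdown), and *GPX2* and *GPX4* (peroxide reduction). They were taken by name from a table of 22587 genes, in which all 10 were found. Of these, 9 reached the level asked of a gene for testing, a mean of at least 0.5 FPKM (fragments scaled by gene length and by library total) over the 9 libraries, which 11880 genes reached. *CHAC1* did not.

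RNA-seq was performed on 3 groups of 3 libraries each. The cultures with Gln added (ADD) were kept in normal high-glucose DMEM. The deprived cultures were seeded in dishes, moved after 24 h to DMEM free of Gln, and harvested 12 h (DE12) or 24 h (DE24) later. All groups were the same unmodified line, so the values describe 1 cell line. The series describes GlutaMAX, a stable dipeptide that supplies Gln, as part of the medium of the deprivation experiment, while the sample labels list it as the treatment of the cultures with Gln added. Which dishes held it cannot be told apart from these sources. The hour at which the ADD cultures were harvested is not given in the sources used here, and nothing says whether the 3 libraries of a group came from separate cultures, so p-values measure only the spread between libraries.

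Glutathione is built in 2 steps that each use ATP. Glutamate-cysteine ligase, made of the catalytic subunit GCLC and the modifier subunit GCLM, joins glutamate, which cells largely take from Gln, to cysteine, and glutathione synthetase (GSS) then adds glycine. In the liver, cysteine can also be made from methionine through transsulfuration, in which cystathionine beta-synthase (CBS) condenses homocysteine with serine and cystathionine gamma-lyase (CTH) releases cysteine. Glutathione peroxidases oxidise glutathione while they remove peroxides, and glutathione reductase (GSR) regenerates it with NADPH. NRF2, which binds antioxidant response elements, and ATF4, the transcription factor of the amino acid response, are the best known activators of genes in this pathway.

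The promoter windows in RefSeq (GRCh38.p14, 250 bases before to 50 bases after each start) gave 13 windows for 8 of the 10 members, with none listed for *GSS* and *GSR*. Both strands were searched for TGATGNAA, the core of the C/EBP-ATF response element through which ATF4 acts, for TGACNNNGC, the core of the antioxidant response element, and for TGACGTCA, the cAMP response element. The sequences below are the 30 bases around each match, since these are places within the windows where known activators of the pathway could bind. Sites outside the windows were not searched. The sequences are read along the strand on which the core reads forward, which in each case was opposite to the gene. The core is in capitals.

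CHAC1 (chr15:40953251-40953280, minus strand): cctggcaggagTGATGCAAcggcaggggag

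GCLM (chr1:93909445-93909474, plus strand): ctggaagacaaTGACTAAGCagaaatcgta

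GPX2 (chr14:64942848-64942877, plus strand): catccccaggaTGACTTAGCaaaaacaggt

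CBS (chr21:43076441-43076470, plus strand): agcgccccgcgTGACCGCGCccagagccgg

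GGT1 (chr22:24603154-24603183, minus strand): attccctgctgTGACCCAGCtcctccttcc

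The *CHAC1* match lay 209 to 202 bases before the RefSeq start, and TGATGNAA occurred in 3.62% of all 35116 windows. The antioxidant core lay 34 to 26 bases before the RefSeq start of *GCLM*, 122 to 114 before that of *GPX2*, 83 to 75 before that of *CBS* in 1 of its 3 windows, and 29 to 21 before that of *GGT1* in 1 of its 2 windows. It occurred in 13.3% of all windows, and TGACGTCA in 1.85%. No listed core was in the windows of *GCLC*, *CTH* or *GPX4*. RefSeq and GENCODE do not place all of these starts alike. The *CHAC1* and *GGT1* stretches lie within the GENCODE genes, and all 30 bases of each are exonic. The *CBS* stretch lies within the gene but outside its exons, and 12 of the 30 bases of the *GCLM* stretch are exonic. Exons of any gene on either strand were counted, so these bases need not be exons of the member itself. A match describes these letters and does not show that a factor binds there.

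In the GENCODE annotation of GRCh38, *GCLC* lies at chr6:53497341-53616970, *GCLM* at chr1:93885199-93909456, *GSS* at chr20:34928432-34956027, *GSR* at chr8:30678066-30727846, *CBS* at chr21:43053191-43076943, *GPX2* at chr14:64939152-64942746, all on the minus strand. On the plus strand lie *CTH* at chr1:70411218-70439851, *CHAC1* at chr15:40952962-40956512, *GGT1* at chr22:24594811-24629005 and *GPX4* at chr19:1103982-1106791. For *GGT1*, 56.5% of the exonic bases are also exonic in ENSG00000286070 on the same strand, so its fragments may be shared with that gene. *CBS* has a near-identical annotated copy, *CBSL*, not analysed here, and the way reads were shared between the copies is not given in the sources used here.

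Libraries held 29621270 to 36261546 fragments, recovered from the steps of the FPKM values. All 8 hepatocyte markers looked at, among them *ALB* and *APOA1*, were at 1 FPKM or more in all 9 libraries. Their summed level was 7530.1 to 7632 FPKM in ADD, 6598 to 6665 in DE12 and 6373 to 6703 in DE24. Of 8 markers of other liver cell types, 7 were in the table and 4 were at 1 FPKM or more in all libraries (*CD68*, *ACTA2*, *KRT19* and *SOX9*). Of these, *KRT19* was at 128 to 131 FPKM in ADD, 74.4 to 84.2 in DE12 and 79.0 to 88.0 in DE24, and *CD68* and *ACTA2* were also lower in the deprived groups, while *SOX9* was higher, at 48.3 to 49.1, 78.5 to 81.2 and 78.2 to 90.2 FPKM. The summed level of the 7 was 249.5 to 252 FPKM in ADD, 206 to 223 in DE12 and 204 to 217 in DE24, while *COL1A1*, a marker of fibroblasts, was at 0 in ADD and at most 0.0171 FPKM in the deprived libraries. The part of these shifts in the results below was not tested. On the second principal component of the tested genes, DE12 replicate 3 lay at -4.72 against -15.8 and -16.0 for the other DE12 libraries. DE24 replicate 1 lay at 1.81 against 15.3 and 14.5 for the other DE24 libraries. Member calls that changed without either of these 2 libraries are given with and without it. In bulk RNA, fewer cells that express a gene and less of its RNA per cell cannot be told apart.

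The order of the members by FPKM was led by the peroxidases. With Gln added, the mean levels were 1034 FPKM for *GPX2*, 215 for *GPX4*, 139 for *GSR*, 49.5 for *GCLC*, 39.3 for *GSS*, 25.2 for *GGT1*, 22.6 for *GCLM*, 3.58 for *CBS*, 1.57 for *CTH* and 0.00622 for *CHAC1*. No neighbours in this order had overlapping libraries in ADD. In DE12 *GPX4* (193 FPKM) and *GSR* (187 FPKM) overlapped, and *GCLM* and *CTH* had passed *GGT1* and *CBS*, respectively. In DE24 *GGT1* (22.7 FPKM) and *GCLM* (20.7 FPKM) overlapped, as did *CTH* (7.28 FPKM) and *CBS* (6.96 FPKM).

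**Figure D1:**
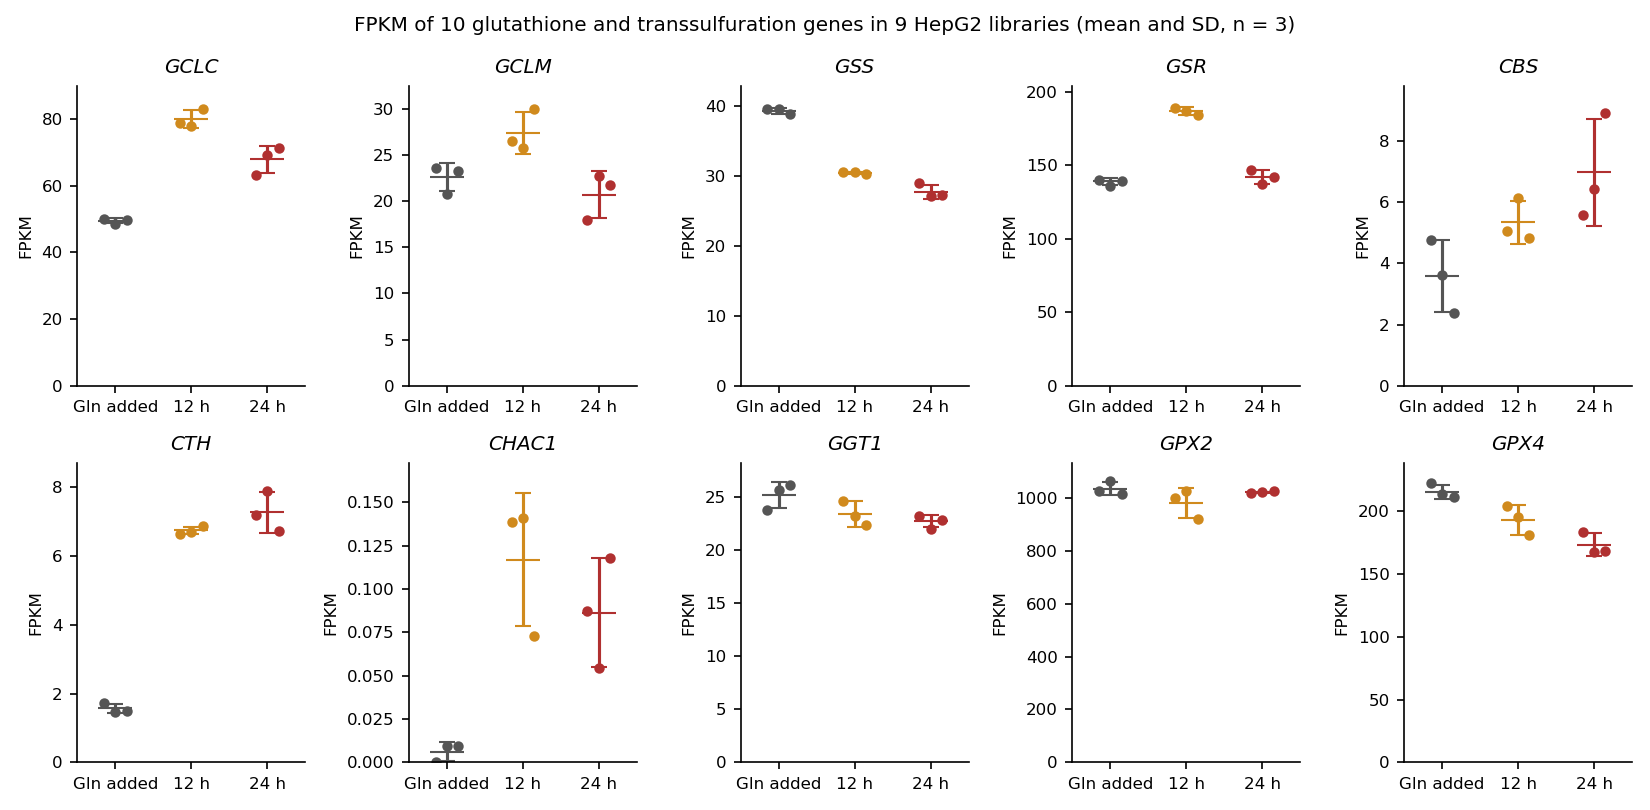
FPKM (vertical axes from 0, a different scale for each gene) of the 10 members in ADD (Gln added), DE12 (12 h) and DE24 (24 h). Each point is 1 library, the long bar the mean and the whisker the SD (n = 3). The deprived libraries of *GCLC*, *CBS*, *CTH* and *CHAC1* all lie above those with Gln added, while those of *GSS* and *GPX4* all lie below.

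At 12 h of deprivation, *GCLC*, *GCLM*, *GSR*, *CBS* and *CTH* rose against ADD, *GSS* and *GPX4* fell, and *GGT1* and *GPX2* did not pass the test. That is 7 of 9 members called at an adjusted p under 0.05 (limma across all genes, Benjamini-Hochberg adjustment), where 60.2% of the 11880 genes tested were called. By direction, 5 of 9 were higher, against 29.1% of all genes, and 2 of 9 were lower, against 31.0%. The higher count was 3 without ADD replicate 2 or without DE12 replicate 3, and the lower count was 1 without DE12 replicate 3. The libraries of 7 members did not overlap between DE12 and ADD, against 67.2% of all genes, with 5 above (32.8% of all genes) and 2 below (34.4%). The median difference of the 9 members was 0.28 on the log2(FPKM + 0.1) scale, beside -0.019 over all genes tested.

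At 24 h, against the same ADD libraries, *GCLC*, *CBS* and *CTH* were higher and *GSS*, *GGT1* and *GPX4* lower, so 6 of 9 members were called, where 64.7% of all genes were. The 3 higher members stand beside 33.0% of all genes and the 3 lower members beside 31.7%. The libraries of 6 members did not overlap, against 69.9% of all genes, with 3 above (35.7%) and 3 below (34.1%). The median difference was -0.02 beside 0.013 over all genes. The share of members called in either direction at 24 h was thus near the background.

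Between the deprived groups themselves, 4 of 9 members (*GCLC*, *GCLM*, *GSS* and *GSR*) were lower at 24 h than at 12 h and 0 were higher. In this comparison 20.1% of all genes were called, 10.5% lower and 9.57% higher. At an unadjusted p under 0.05, limma also gave no higher member, and neither did voom at the adjusted threshold. The libraries of the same 4 members did not overlap between the times, against 34.4% of all genes, and all 4 were below (16.9% of all genes). The plot of fold changes shows these differences for each member. DE24 cultures were also harvested later after seeding than DE12 cultures, so longer deprivation and longer culture cannot be told apart.

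**Figure D2:**
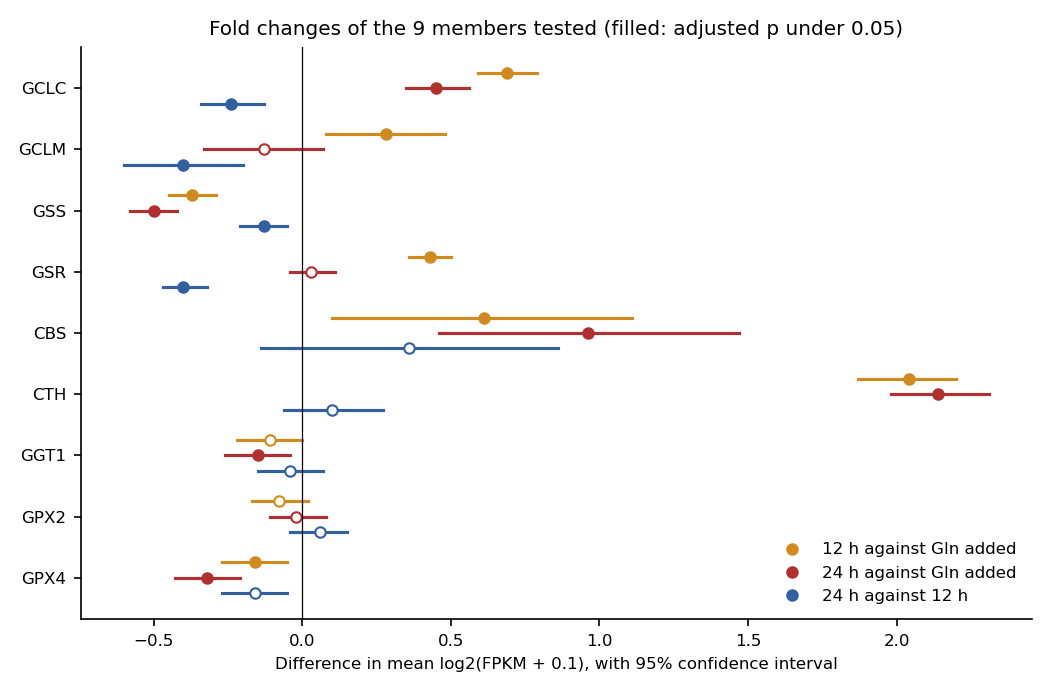
Difference in mean log2(FPKM + 0.1) (horizontal axis) for the 9 members tested, with 95% confidence intervals from limma, for DE12 against ADD, DE24 against ADD and DE24 against DE12. Filled points passed an adjusted p of 0.05, and *CTH* stands furthest right, at 2.04 and 2.14 against ADD.

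*GCLC*, which carries the active site of glutamate-cysteine ligase, measured 50.1, 48.5 and 49.8 FPKM in ADD, 78.8, 77.8 and 83.0 in DE12, and 63.3, 69.2 and 71.1 in DE24. The 3 groups did not overlap, with DE12 highest and ADD lowest. Its log2 fold change was 0.69 (SE 0.046, limma adjusted p = 5.26e-07) at 12 h and 0.45 (adjusted p = 8.95e-06) at 24 h. The fall from 12 h to 24 h was -0.24 (adjusted p = 0.00546), and without DE12 replicate 3 or without DE24 replicate 1 it was -0.21 (adjusted p = 0.0183) and -0.19 (adjusted p = 0.00868).

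*GCLM*, whose product lowers the ligase's need for glutamate and eases its feedback inhibition by glutathione, measured 23.6, 20.8 and 23.3 FPKM in ADD, 26.5, 25.7 and 30 in DE12, and 17.9, 22.7 and 21.7 in DE24. All DE12 libraries were above the other groups, and DE24 overlapped ADD. At 12 h its log2 fold change was 0.28 (SE 0.09, adjusted p = 0.0213), and this call was lost without ADD replicate 2 (0.22, adjusted p = 0.0855) and without DE12 replicate 3 (0.21, adjusted p = 0.081). At 24 h it was -0.13 (95% interval -0.33 to 0.07, adjusted p = 0.238), or -0.02 without DE24 replicate 1. From 12 h to 24 h the log2 fold change of *GCLM* was -0.40 (limma adjusted p = 0.0107). Without DE12 replicate 3 it was -0.34 (adjusted p = 0.0353), and without DE24 replicate 1 it was -0.30 (adjusted p = 0.0173).

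*GSS*, the enzyme of the final step of synthesis, went the other way from *GCLC*. It measured 39.6, 39.6 and 38.8 FPKM in ADD, 30.5, 30.5 and 30.2 in DE12, and 28.9, 27.1 and 27.2 in DE24, and the 3 groups did not overlap. The log2 fold change was -0.37 (SE 0.036, adjusted p = 8.19e-06) at 12 h and -0.50 (adjusted p = 5.66e-07) at 24 h. The further fall between the times was -0.13 (adjusted p = 0.0263). That last call was lost without DE12 replicate 1 (adjusted p = 0.077), DE12 replicate 2 (0.073), DE24 replicate 2 (0.0776) or DE24 replicate 3 (0.0895).

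The proportions of the 3 transcripts for synthesis shifted with deprivation. The ratio of *GCLC* to *GCLM* in FPKM was 2.12 to 2.33 in ADD, 2.77 to 3.03 in DE12 and 3.05 to 3.54 in DE24. The ratio of *GCLC* to *GSS* was 1.23 to 1.28 in ADD, 2.55 to 2.75 in DE12 and 2.19 to 2.61 in DE24. For both ratios the deprived libraries all lay above those with Gln added. The plot of ratios by library gives these values beside those of *GSR* with *GPX4* and *CTH* with *CBS*.

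**Figure D3:**
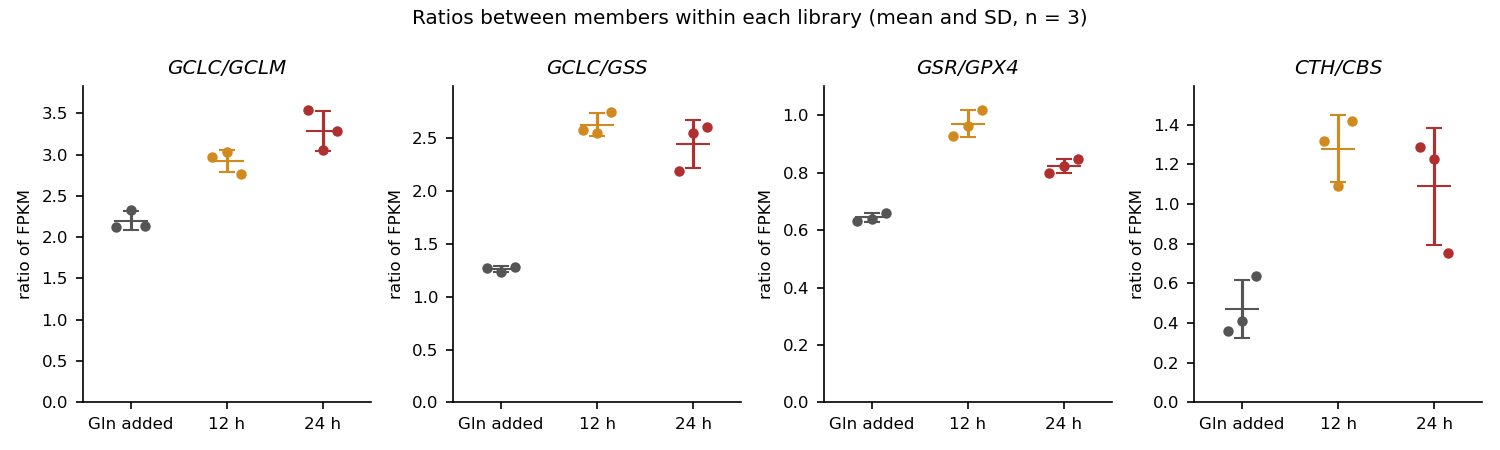
Ratio of FPKM of 2 members within the same library (vertical axes from 0) by group. Points are libraries, the long bar the mean and the whisker the SD (n = 3), and *GCLC*/*GSS* went from 1.23 to 1.28 in ADD to 2.55 to 2.75 in DE12.

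*CTH*, which releases cysteine from cystathionine, had the largest log2 fold change of the 9 members tested. It measured 1.72, 1.48 and 1.51 FPKM in ADD, 6.66, 6.71 and 6.87 in DE12, and 7.19, 7.91 and 6.72 in DE24. The deprived libraries all lay above those with Gln added, and the times overlapped. The mean was 4.29 times that of ADD at 12 h (log2 fold change 2.04, SE 0.075, adjusted p = 6.29e-09) and 4.63 times at 24 h (2.14, adjusted p = 2.83e-09). The difference between the times was 0.10 (95% interval -0.06 to 0.27, adjusted p = 0.362). These levels rested on 247 to 293 fragments a library in ADD and 941 to 1256 in the deprived groups.

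*CBS*, the enzyme before it, measured 4.75, 3.62 and 2.39 FPKM in ADD, 5.04, 6.14 and 4.82 in DE12, and 5.56, 6.43 and 8.90 in DE24. Every deprived library was above every ADD library, by as little as 4.82 against 4.75 FPKM, and the times overlapped. The log2 fold change was 0.61 (SE 0.23, adjusted p = 0.0388) at 12 h and 0.96 (adjusted p = 0.00333) at 24 h, and 0.36 (adjusted p = 0.299) between the times. The 12 h call was lost without ADD replicate 2 (0.64, adjusted p = 0.0678), DE12 replicate 1 (0.64, 0.064), DE12 replicate 2 (0.50, 0.127) or DE12 replicate 3 (0.67, 0.051), and without ADD replicate 3 the value itself dropped to 0.35 (adjusted p = 0.146). The 24 h call held with any 1 of the 9 libraries left out, between 0.71 and 1.19. The DE12 libraries enter that comparison only through the shared estimate of spread.

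The spread of *CBS* between replicates was wide for its level. Its coefficient of variation (CV) was 32.9% in ADD, 13.2% in DE12 and 24.9% in DE24, above 99.5%, 93.3% and 99.1% of the genes within 2-fold of its mean level. The medians of those genes were 5.23%, 5.63% and 5.39%. The *CBS* levels rested on 310 to 1134 fragments a library. *GCLM* was also above 90% of its peers in each group (CV 6.76%, 8.29% and 12.1%), while *GSS* was below most of its own (1.12%, 0.686% and 3.63%). *GPX2* in DE24, with a CV of 0.218%, had the lowest CV of the 65 genes within 2-fold of its level, itself included. The ratio of *CTH* to *CBS*, 0.362 to 0.635 in ADD, 1.09 to 1.42 in DE12 and 0.755 to 1.29 in DE24, carries the spread of *CBS*.

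**Figure D4:**
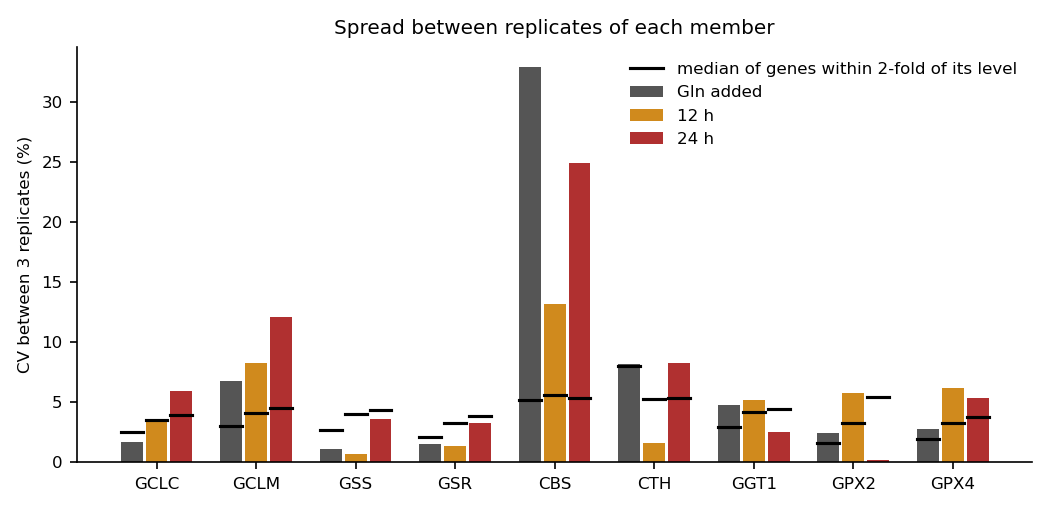
CV between the 3 replicates (vertical axis, percent) of each tested member by group, with the median of all genes within 2-fold of its level as a black line. *CBS* reaches 32.9% in ADD against a median of 5.23%.

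*CHAC1*, an ATF4-responsive enzyme that cleaves cytosolic glutathione into 5-oxoproline and cysteinylglycine, was hardly detected and was not tested across genes. Its recovered fragments were 0, 2 and 2 in ADD, 25, 31 and 16 in DE12, and 19, 11 and 25 in DE24. Every deprived library was above every ADD library and the times overlapped. As FPKM these are 0, 0.00941 and 0.00925 in ADD, 0.139, 0.141 and 0.0730 in DE12, and 0.0873, 0.0544 and 0.118 in DE24, beside 0.0136 to 0.0167 FPKM for 3 fragments in 1 library.

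Pooled over the 3 libraries of a group and set against the library totals, *CHAC1* held 18.8 times as many fragments at 12 h as in ADD (exact 95% interval 7.02 to 70.7) and 14.1 times as many at 24 h (5.19 to 53.4). The ratio of 24 h to 12 h was 0.749 (0.517 to 1.08). These intervals cover counting error only. With no filter on low values, limma on log2(FPKM + 0.1) gave 1.02 (adjusted p = 0.00144) and 0.80 (adjusted p = 0.00461) at 12 h and 24 h. On this scale most of the change is absorbed by the pseudocount.

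The gene length that the FPKM values of *CHAC1* imply was 6081 bases, against 2051 exonic bases and a span of 3551 bases in GENCODE, so the annotation behind this row differs from GENCODE's. A length beyond the gene's span occurred in 228 of 18361 genes compared (1.24%). *CTH* also had a longer implied length (4772 bases) than its 2414 exonic bases in GENCODE. FPKM levels of both depend on these lengths, and through the pseudocount so do their differences on the log2(FPKM + 0.1) scale. *CHAC2*, the constitutive relative of *CHAC1*, measured 6.17, 5.94 and 5.81 FPKM in ADD, 3.57, 4.01 and 3.47 in DE12, and 3.14, 3.94 and 3.35 in DE24. It fell by 0.69 on the log2 scale at 12 h (limma adjusted p = 5.52e-05) and by 0.77 at 24 h (adjusted p = 1.8e-05).

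The profiles nearest to that of *CHAC1* over the 9 libraries, by the root mean square of the differences in centred log2(FPKM + 0.1), included *EIF1* (0.157), *IKBKG* (0.158), *SNHG32* (0.162) and *PSMD6-AS2* (0.166). The pseudocount is larger than the mean of *CHAC1* in ADD and compresses its profile, so these genes match the compressed differences of 1.02 and 0.80 and not the pooled ratios of 18.8 and 14.1. Those nearest to *GSS*, the tested member with the lowest log2 fold change at 24 h, were *CHP1* (0.0287), *HSP90AB1* (0.0291), *ANXA2* (0.0314), *TPI1* (0.0316) and *TPGS2* (0.0321).

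*GGT1*, a gamma-glutamyltransferase that starts the breakdown of glutathione outside the cell, measured 23.8, 25.6 and 26.1 FPKM in ADD, 24.6, 23.2 and 22.3 in DE12, and 23.2, 22 and 22.8 in DE24. DE12 overlapped ADD, and DE24 lay below it by a narrow gap. At 12 h it changed by -0.11 on the log2 scale (95% interval -0.22 to 0.00, adjusted p = 0.0858), and this became a call without ADD replicate 1 (-0.15, adjusted p = 0.0383) or DE12 replicate 1 (-0.15, 0.0364). At 24 h it was -0.15 (adjusted p = 0.0222), a call lost without ADD replicate 2 (adjusted p = 0.07), ADD replicate 3 (0.0881) or DE24 replicate 2 (0.0691). It was also lost when each library's FPKM were scaled to 1 common sum (-0.10, adjusted p = 0.0741).

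*GSR*, the NADPH-dependent reductase, was higher than ADD at 12 h and was not called at 24 h. It measured 140.2, 136 and 139 FPKM in ADD, 189, 187 and 184 in DE12, and 147, 137 and 142 in DE24. DE12 lay above both other groups, which overlapped. The log2 fold change was 0.43 (SE 0.033, adjusted p = 1.51e-06) at 12 h, 0.03 (95% interval -0.04 to 0.11, adjusted p = 0.382) at 24 h and -0.40 (adjusted p = 3e-05) between the times. When each library's FPKM were scaled to 1 common sum, the 24 h difference was 0.08 and passed the test (adjusted p = 0.0404).

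*GPX4*, the selenoprotein that reduces lipid hydroperoxides in membranes, measured 222, 213 and 211 FPKM in ADD, 204, 195 and 180.4 in DE12, and 183, 167 and 168 in DE24. Both deprived groups lay below ADD. It changed by -0.16 on the log2 scale (SE 0.052, adjusted p = 0.0205) at 12 h and -0.32 (adjusted p = 0.000274) at 24 h. The 12 h call was lost without ADD replicate 1 (-0.14, adjusted p = 0.0779) or DE12 replicate 3 (-0.11, adjusted p = 0.0734). Between the times it was -0.16 (adjusted p = 0.0524), and -0.21 (adjusted p = 0.0172) without DE12 replicate 3 or -0.20 (adjusted p = 0.0172) without DE24 replicate 1.

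*GPX2*, the gastrointestinal peroxidase and the most abundant member, measured 1024, 1062 and 1015 FPKM in ADD, 999, 1026 and 918 in DE12, and 1019, 1021 and 1024 in DE24. The groups overlapped in every comparison. Its log2 fold change was -0.08 (95% interval -0.17 to 0.02) at 12 h and -0.02 (-0.11 to 0.08) at 24 h. The ratio of *GPX2* to *GPX4* was 4.61 to 4.98 in ADD, 4.90 to 5.27 in DE12 and 5.56 to 6.11 in DE24, with DE24 above both other groups. The ratio of *GSR* to *GPX4* was 0.631 to 0.661 in ADD, 0.929 to 1.02 in DE12 and 0.80 to 0.847 in DE24, with no overlap between groups.

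For a single member, the two-sided exact permutation test of 3 libraries against 3 cannot go below p = 0.1. The 7 members called at 12 h and the 6 called at 24 h each reached that value against ADD, as did *CHAC1* at both times. Groups that do not overlap always give this value, so it adds nothing to the counts of non-overlap above.

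Other genes of the pathway were taken from 8 lists. Their counts stand beside 29.1% of all genes higher and 31.0% lower at 12 h, and 33.0% higher and 31.7% lower at 24 h. Among 13 tested genes of the glutathione cycle and precursor supply, 4 were higher and 6 lower at 12 h, and 6 were higher and 5 lower at 24 h, with medians of -0.09 and 0.09. The examples named here and below are those with the largest changes. *SLC7A11*, the light chain of the cystine-glutamate exchanger that imports cystine, rose from 10.5, 9.75 and 9.78 FPKM in ADD to 30.4, 29.6 and 36.0 in DE12 and 32.0, 39.7 and 40.0 in DE24 (log2 fold changes 1.66 and 1.88). *SLC3A2*, its heavy chain, rose by 1.16 and 1.07 on the same scale. *SLC1A5*, a Gln transporter, rose by 1.23 and 1.26.

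In the list of the methionine cycle, transsulfuration and cysteine or sulfide breakdown, of 19 genes tested, 3 were higher and 10 lower at 12 h, and 5 were higher and 11 lower at 24 h, with medians of -0.15 and -0.21. *BHMT*, which remethylates homocysteine, fell from 18.0, 19.1 and 18.9 FPKM in ADD to 9.18, 10.4 and 9.91 in DE12 and 5.54, 6.04 and 5.94 in DE24 (log2 fold changes -0.92 and -1.66). *MAT1A*, the liver enzyme that makes S-adenosylmethionine, changed by -0.56 and -0.78. *GOT1*, the cytosolic aspartate aminotransferase, rose by 0.83 and 0.91, while its mitochondrial counterpart *GOT2* changed by -0.57 and -0.60.

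The next list, of 15 tested genes, held enzymes linked to glutathione and the thioredoxin reductases *TXNRD1*, *TXNRD2* and *TXNRD3*. At 12 h 3 of the 15 were higher and 10 lower (median -0.18), and at 24 h 3 were higher and 9 lower (median -0.16). *GLO1*, which clears methylglyoxal with glutathione as cofactor, changed by -0.86 and -0.91, and *PRDX6*, a peroxiredoxin reduced by glutathione, by -0.81 and -0.89. *GLRX*, a glutaredoxin, rose by 0.39 and then 0.82, and *TXNRD1*, thioredoxin reductase, by 0.65 and 0.21. Of 17 tested genes in a selenoprotein list, 4 were higher and 5 lower at 12 h (median -0.10). At 24 h 3 were higher and 4 lower (median 0.01). This list holds genes of selenoprotein synthesis, on which *GPX4* depends, but also other selenoproteins, such as *SELENOW*, *SELENOS* and *TXNRD1*. Here *LRP8*, a receptor for selenoprotein P, changed by -0.84 and -1.15, *SELENOW* by -0.75 at both times, and *SELENOS* rose by 0.68 at both.

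Of 9 tested genes of glutathione transport, 4 were higher and 4 lower at 12 h, and 4 higher and 5 lower at 24 h (medians 0.04 and -0.27). *SLC25A10* and *SLC25A11*, mitochondrial dicarboxylate and oxoglutarate carriers, changed by -0.67 and -0.69 at 12 h and by -0.79 and -0.60 at 24 h. *SLC25A40*, a carrier linked to mitochondrial glutathione, changed by -0.30 and -0.50, and *ABCC2*, an export pump of glutathione conjugates, rose by 0.43 and 0.35. Of 15 tested genes of lipid peroxidation and iron around *GPX4*, 4 were higher and 8 lower at 12 h, and 2 higher and 8 lower at 24 h (medians -0.11 and -0.14). *ACSL4*, which activates polyunsaturated fatty acids, changed by -0.82 and -0.74, *TFRC*, the transferrin receptor, by -0.49 and -0.65, and *VDAC3* by -0.74 and -0.91. *POR*, the cytochrome P450 reductase, rose by 0.78 and 0.55.

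The lists for NRF2 and ATF4 held genes outside the glutathione enzymes. Of 15 NRF2 targets tested, 8 were higher and 5 lower at 12 h, and 5 higher and 7 lower at 24 h (medians 0.13 and 0.03). Between the times 10 of the 15 were lower at 24 h and 5 were not called (median -0.23, beside 0.019 over all genes), where 10.5% of all genes were lower. With median-ratio scaling 12 of the 15 were lower (14.2% of all genes), and with FPKM scaled to 1 common sum 9 were (9.22%). At 12 h *OSGIN1* rose by 0.96 and *SRXN1*, sulfiredoxin, by 0.92, and at 24 h these were 0.41 and 0.57. *HMOX1*, heme oxygenase, changed by -0.26 and -0.82, and *BLVRB*, a biliverdin reductase, by -0.37 and -0.79.

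Of 19 ATF4 targets tested, 18 were higher and the other was not called at 12 h, and 18 were higher and 1 lower at 24 h (medians 1.38 and 1.42). Between the times 2 were higher and 3 lower, with a median of -0.07, where 9.57% of all genes were higher and 10.5% lower. With median-ratio scaling 1 was higher and 6 lower (14.2% of all genes lower). With FPKM scaled to 1 common sum 2 were higher and 2 lower (9.22% of all genes lower). *ASNS*, asparagine synthetase, rose from 0.13, 0.124 and 0.13 FPKM in ADD to 1.95, 1.86 and 1.61 in DE12 and 1.24, 1.51 and 1.54 in DE24. Its ADD levels rested on 14 to 15 fragments a library, and its 12 h log2 fold change ran from 1.31 to 3.76 over the alternatives. *TRIB3* rose by 2.02 and 1.96 on the log2 scale, and *DDIT3* by 1.72 and 1.58. *SLC7A11* is counted in the lists of the glutathione cycle, NRF2 and ATF4, and *SLC3A2* in those of the glutathione cycle and ATF4. *TXNRD1* is counted in the lists of enzymes linked to glutathione, selenoproteins and NRF2. *FTH1* and *FTL* are counted in the lists of lipid peroxidation and iron and of NRF2. The plot of the lists sets all of these genes side by side.

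**Figure D5:**
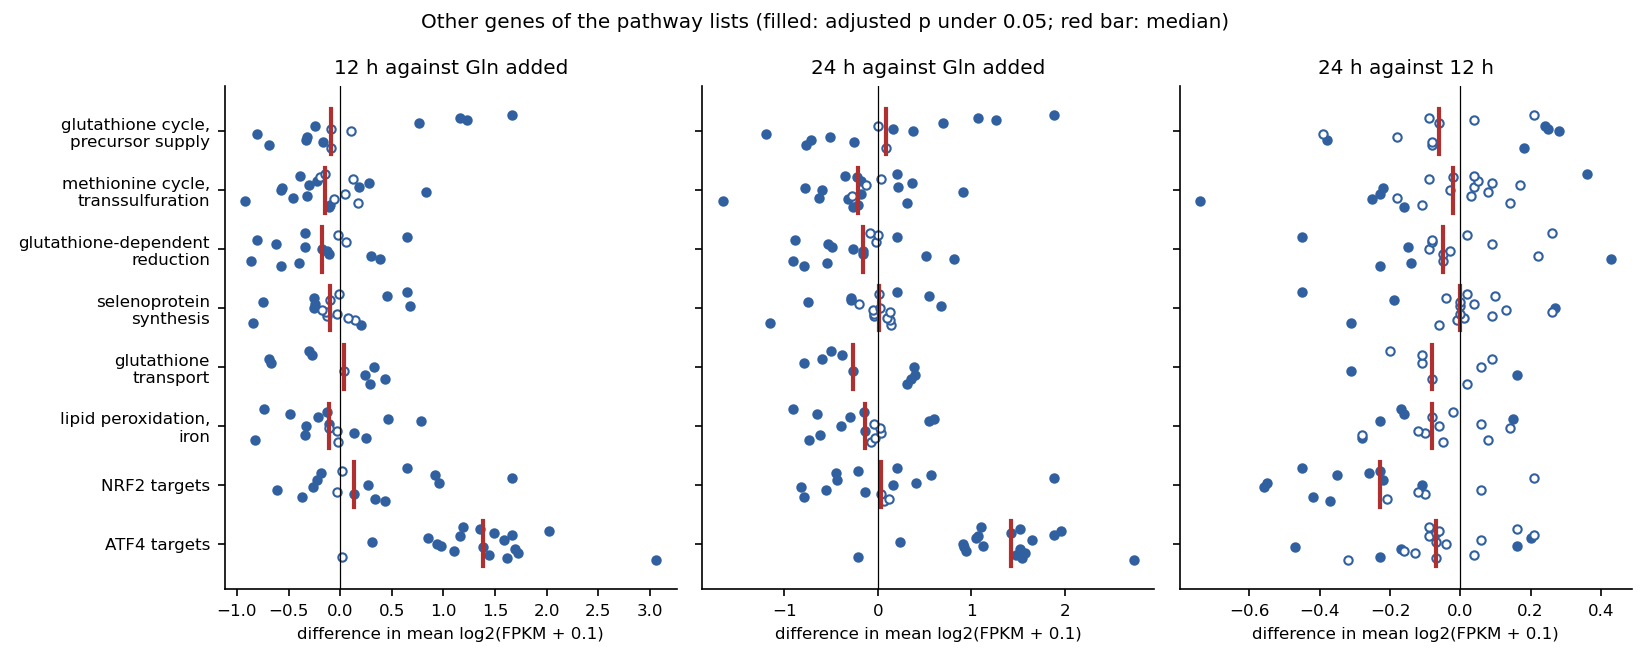
Difference in mean log2(FPKM + 0.1) (horizontal axes, which differ in range between panels) of the tested genes of 8 lists, members left out, in the 3 comparisons. Each point is a gene, filled where the adjusted p was under 0.05, the red bar is the list's median, and the median of the ATF4 targets lies at 1.38 and 1.42 in the comparisons with ADD and at -0.07 between the times.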

How the data were processed

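HepG2 RNA-seq comprised 3 groups of 3 libraries. The authors aligned reads to GRCh38 with STAR per the methods, and the submitters' processing notes name HTSeq and R 3.2.0. The annotation is not given in the sources used here. The labels and the methods name different library kits, and only the methods state strand-specific libraries. The authors deposited FPKM per gene, and no further normalization is stated. All columns were used. FPKM steps gave whole fragments for 100% of genes (tolerance 0.02) and thereby library totals and gene lengths.

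Genes whose mean FPKM reached 0.5 were tested as log2(FPKM + 0.1) with limma 3.58.1 (lmFit, eBayes with a trend) in R 4.3.3, all 3 groups in 1 fit, with Benjamini-Hochberg adjustment over 11880 genes and a threshold of 0.05. Fold changes on this scale understate changes of low genes. Intervals for *CHAC1* are exact binomial (95%) and cover counting error only. The fit was tested on simulated data. Both comparisons with ADD share its 3 libraries, and the comparison between the times shares the DE12 and DE24 libraries with them.

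Members, lists and tests were chosen with earlier results of these data known. From each list the text names up to 3 called genes of at least 1 FPKM with the largest change at 24 h, and the same at 12 h. Nearest profiles, centred on the mean of ADD, are given for *CHAC1* and for the member with the lowest log2 fold change at 24 h, and 1 of them is not reported here. *CHAC2* is named as the relative of *CHAC1*. Alternatives covered the pseudocount (1 and 0.01), the filter (none, or 1 FPKM), scaling, the groups in the fit, a replicate block, the trend, voom on recovered fragments, *GGT1* summed with its relatives, and each library left out. Replicates differed by more than counting noise in every pair.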

Additional observations from a re-analysis of the deposited data

Results flagged for a closer look

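The results given here were set apart because levels at 24 h differed from those at 12 h (limma, DE24 against DE12, adjusted over 11880 genes). Without a Gln-added group for each time, longer deprivation and longer culture cannot be told apart. Among the members, *GSR* differed by -0.40 (log2 scale, adjusted p = 3e-05), *GCLM* by -0.40 (adjusted p = 0.0107), *GCLC* by -0.24 (adjusted p = 0.00546) and *GSS* by -0.13 (adjusted p = 0.0263). For *GCLC*, *GCLM* and *GSR* the difference goes against the rise at 12 h, and for *GSS* it adds to the fall.

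Among the other genes named, 11 were lower at 24 h than at 12 h. These were *BHMT* (-0.74), *HMOX1* (-0.56), *OSGIN1* (-0.55), *TXNRD1* (-0.45), *BLVRB* (-0.42), *SRXN1* (-0.35), *LRP8* (-0.31), *POR* (-0.23), *MAT1A* (-0.22), *VDAC3* (-0.17) and *TFRC* (-0.16). *GLRX* was higher, by 0.43. In this comparison 20.1% of all genes tested were called, 10.5% lower and 9.57% higher. The named genes were picked for large changes against ADD in the same libraries, so their number is not read against these shares.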

How the results depend on the processing

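Across 21 alternatives, 132 results gave 2589 values, of which 7 moved, 40 lost and 19 gained a call, and 15 changed sign, none of them called. The changes of sign were in *GPX2* at 24 h (0.03 with FPKM scaled to 1 common sum, -0.03 to 0.00 with a library left out) and, between the times, in *GLO1* (-0.11 to 0.02 with a library left out), *SELENOS* (-0.03 with median-ratio scaling, -0.05 to 0.11 with a library left out), *SELENOW* (0.01 with common sums or voom, -0.07 to 0.11 with a library left out) and *SLC1A5* (0.00 with median-ratio scaling). With no filter on low values, members called higher at 12 h went from 5 to 3 and members called lower from 2 to 1. With 1 library left out at a time, the first count ranged from 3 to 5 and the second from 1 to 3. The low ends came without ADD replicate 2 or DE12 replicate 3 for the first, and without DE12 replicate 3 for the second. With no filter, *GCLM* (adjusted p = 0.0606), *CBS* (0.107) and *GPX4* (0.056) lost their 12 h calls. *CBS* at 12 h was also lost without a trend (0.0663). The fall of *GSS* between the times was lost without a trend (0.0504) and with the 2 compared groups alone (0.0761), while that of *GPX4* passed with genes of at least 1 FPKM (0.0481), with median-ratio scaling (0.0289) and with voom (0.0312). The log2 fold change of *CHAC1* was 4.07 at 12 h and 3.65 at 24 h by voom with no filter, an alternative added after seeing the data. The cause of these changes was not tested.

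Of the calls between the times, 47.7% were higher, or 33.4% after median-ratio scaling and 54.3% after rescaling FPKM to the same total. Deviations from the group mean over the tested genes correlated from -0.136 to 0.283 between same-numbered libraries of different groups. Between differently numbered libraries they correlated from -0.467 to 0.296, so the numbers were not taken to pair libraries. With the replicate block, *CBS* at 12 h was lost (adjusted p = 0.0607) and *GPX4* passed between the times (0.011). The sum of *CBS* with *CBSL* was not run. Only *GGTLC3*, with at most 2 fragments in a library, could be added to *GGT1*. Depth limits *CHAC1*, at 11 to 31 fragments in a deprived library.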
